A study of Arabidopsis thaliana with 12 samples.

Results

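Transcript levels on day 6 were compared with those on day 2 in cultured Col-0 cells of Arabidopsis thaliana, grown in suspension and induced to form tracheary elements in culture. The comparison used 4 of the 12 arrays of the series, 2 arrays per day. It covered 14154 of the 22746 probe sets that are not array controls, namely those with a signal at or above the array's own 40th percentile on both arrays of day 2 or on both arrays of day 6. The other 8592 were left out. Per the labels, cells of both days came from 7.5 ml of a 7-day-old culture that was placed in 42.5 ml of fresh medium. This medium held the brassinosteroid brassinolide at 1 uM, boric acid at 10 mM and sucrose at 3%, and both days are labelled 27 C. The labels of days 2 and 6, like those of day 0, also give 1 ug/ml of the synthetic auxin 2,4-D, with 3% sucrose. Whether the medium with brassinolide itself held 2,4-D is not settled here. The untreated cells of day 0 are labelled 22 C, as are the treated cells of days 4 and 8, so a day labelled 22 C lies between the 2 days compared. Medium and labelled temperature were thus the same on days 2 and 6, and the labels give the time in the medium as the difference.

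Tracheary elements are the water-conducting cells of xylem. They deposit a patterned secondary wall of cellulose, xylan and lignin inside the primary wall, guided by cortical microtubules, and then digest their own contents through vacuolar and autophagic hydrolases, so that a hollow tube remains. Brassinosteroids, of which brassinolide is the most active, promote the entry of cultured cells into this programme. The comparison addresses which transcripts separate cells recently transferred to the medium from cells kept in it for longer. How far differentiation had advanced on either day is not given by the labels. In RNA from a whole culture, a change in the share of cells of a type and a change in the RNA of each such cell cannot be told apart.

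The 12 arrays were similar in level. Their median signals lay between 33.2 and 40.7, their 40th percentiles between 17.2 and 22.1, and the 2 arrays of a day correlated over log2 signals at r between 0.962 and 0.966. Whether the paired arrays of each day stem from different cultures is not labelled. The p-values therefore reflect only array-to-array spread, possibly technical, and the number of arrays limits the precision. The 3' over 5' signal ratios of the actin control were 1.08 and 1.19 on day 2 and 1.19 and 1.21 on day 6, and those of the GAPDH control were 0.982 and 1.02 on day 2 and 0.837 and 0.931 on day 6. The control probe set for 25S ribosomal RNA gave 219 and 2183 on day 2 and 25.6 and 35.1 on day 6, which did not overlap, and its part in the results was not tested. Of 27 cell type markers chosen, the annotation named 2, both of tracheary elements (IRX10 and IRX15), and both were tested. None of the chosen markers of phloem, dividing cells, green mesophyll, epidermis or fibres was named there, so the share of such cells could not be checked with them.

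Most of the measured transcripts differed between the 2 days. In a limma fit over all 12 arrays, 7948 of 14154 probe sets (56.2%) passed at a Benjamini-Hochberg adjusted p under 0.05. Of all tested, 3795 (26.8%) were higher on day 6 and 4153 (29.3%) were lower, and the fitted change was 2-fold or more for 1416 of the higher and 1214 of the lower. Of these, 793 and 843 were at or above the 40th percentile on all 4 arrays, and the fitted folds of the others rest on dim signals. With so large a share called, passing the test alone sets no gene apart, and a group's share of calls is to be read against 26.8% higher and 29.3% lower. The groups were chosen with earlier results of these data known, so their shares and medians are a description only and test nothing. Over all tested probe sets the median change was -0.024 on the log2 scale as deposited. It became -0.14 when each array was centred on its median, which lowered the share of higher calls among all calls from 47.7% to 38.2% (3069 higher, 4957 lower). All changes that follow use the scaling of the deposited values. The tested probe sets represented 7666 genes, of which 1989 were higher and 2175 lower. The annotation gave a gene symbol to 1046 of them, and the others are named by locus.

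**Figure D1:**
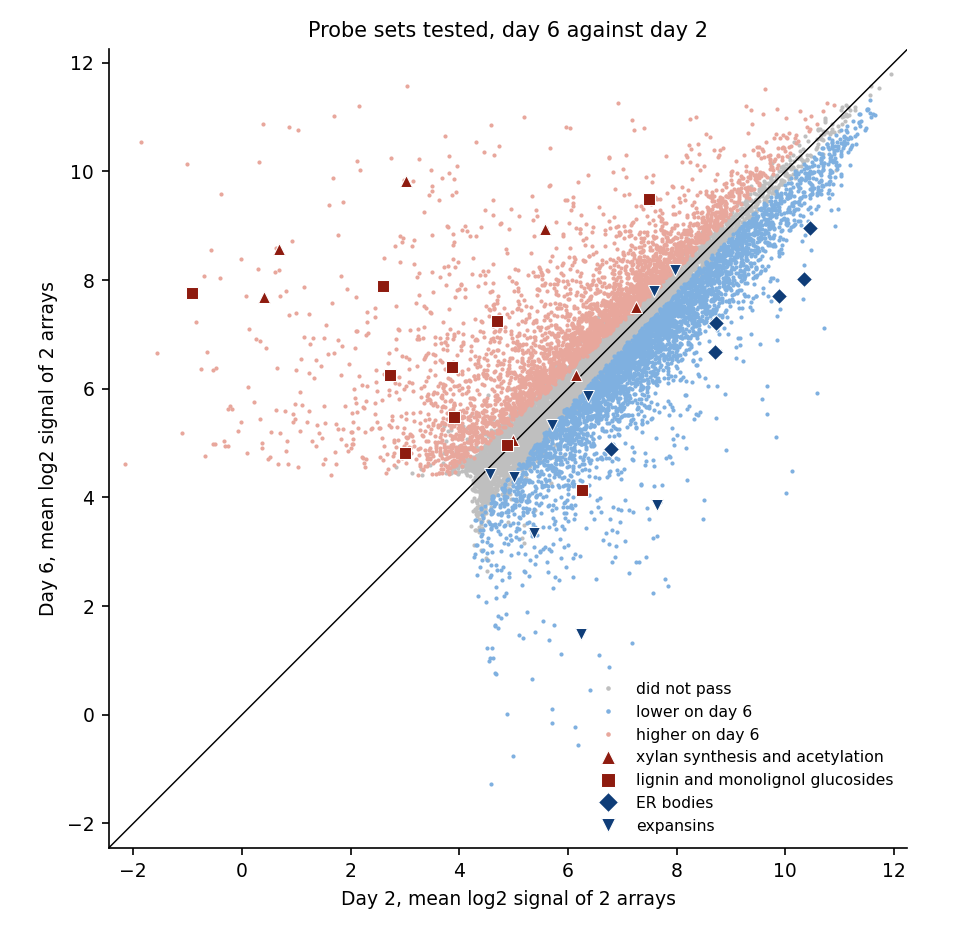
Mean log2 signal of the 2 arrays of day 6 (vertical axis) against that of day 2 (horizontal axis) for the 14154 probe sets tested, coloured by whether they were called higher or lower on day 6, with the line of equality. Triangles and squares mark the xylan and lignin groups, of which 5 and 8 members were called higher. Diamonds mark the ER body group, all 6 called lower, and inverted triangles the expansins, 4 called lower.

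Signals are given as deposited, with the value of each array, replicate 1 first. Changes are log2 differences, day 6 minus day 2, ± the standard error of the fit (n = 2 arrays on each day). A gene with an array below its 40th percentile is called dim there. For such a gene every array was raised to its own 40th percentile, and the fold between the 2 geometric means then serves as a bound, "at least" that fold. A gene dim on 1 day was tested only through the other day, so the filter favours changes towards that day in group counts and medians. It bears on 7 of 10 lignin, 5 of 9 expansin, 4 of 7 nuclear photosynthesis and 3 of 7 xylan genes. The same holds for 2 of 3 xyloglucan endotransglucosylase genes. Genes with a dim array on both days were not tested.

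The genes that build and acetylate xylan had the largest median rise of the groups examined. Of 7 genes, all measured, 5 were higher on day 6, 0 were lower and 2 did not pass, with a median change of 3.35. IRX10 (listed under its other symbol, GUT2), a glycosyltransferase of xylan backbone synthesis, had signals of 48.9 and 47.2 on day 2 and 564 and 426 on day 6, a rise of 3.35 ± 0.16 (limma adjusted p = 2.61e-08). All 4 arrays were well measured and the days did not overlap. IRX15, needed for xylan of normal length, was dim on day 2 (3.97 and 0.445) and had 209.8 and 202 on day 6, at least 11.1-fold higher. Its close homologue IRX15-L went from 1.67 and 1.53 to 417 and 343, at least 20.4-fold higher, with both day 2 arrays dim. The xylan O-acetyltransferase TBL34 had the largest bound of the group, from 6.35 and 10.2 to 938 and 876, at least 48.9-fold higher. The changes of the remaining 3 were small. GUT1, a close homologue of IRX10, rose by 0.25 (adjusted p = 0.043), and this call did not pass under quantile normalization (0.23), with arrays centred on their medians (0.14) or without any 1 of the 4 arrays (0.22 to 0.29). TBL32 (0.10 ± 0.11) and TBL35 (0.055 ± 0.21) did not pass. Among all 11 measured TBL genes, a family of wall polysaccharide acetyltransferases of which 22 are named, 2 rose and 1 fell (18.2% and 9.09%, both below the shares of all probe sets), with a median of 0.10. The second that rose was TBL23 (0.78 ± 0.16), and TBL39 fell from 326 and 348 to 74.5 and 80.2 (-2.12 ± 0.17).

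Lignin genes were the second group by median change (2.27, or 2.02 with dim genes at their bounds). The annotation named 15 genes of monolignol synthesis, polymerization and glucosylation, of which 10 were measured, 8 rose, 1 fell and 1 did not pass. HCT, the hydroxycinnamoyl transferase of the monolignol pathway, had 199 and 163 on day 2 and 787 and 663 on day 6 (2.01 ± 0.13). CCR2, a cinnamoyl-CoA reductase, was dim on day 2 (19.1 and 11.2) and had 81.2 and 88.0 on day 6, at least 4.56-fold higher. For both genes each day 6 array stood above each day 2 array. The class III peroxidases, which oxidize monolignols in the wall, rose from dim signals. PRX72 went from 0.365 and 0.765 to 235 and 202, at least 11.7-fold higher. PRX52 went from 7.81 and 4.63 to 317 and 176, at least 12.7-fold higher, and PRX25 from 14.8 and 15.3 to 39.7 and 50.1, at least 2.41-fold higher. Enzymes that attach glucose to monolignols and enzymes that remove it both moved. The glucosyltransferase GT72B1 was at least 4.1-fold higher (9.33 and 4.66 on day 2 and 83.1 and 69.6 on day 6). The monolignol glucosidase BGLU46 had 26.5 and 25.1 on day 2 and 161 and 144 on day 6 (2.56 ± 0.15), and BGLU45 was at least 1.52-fold higher. UGT72E2, another monolignol glucosyltransferase, did not pass (0.081 ± 0.23). ALDH2C4, the dehydrogenase that turns coniferaldehyde into ferulic acid, was the member that fell, from 74.8 and 79.5 to 22.5 and 13.9, at least 3.63-fold lower, with 1 dim array on day 6.

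**Figure D2:**
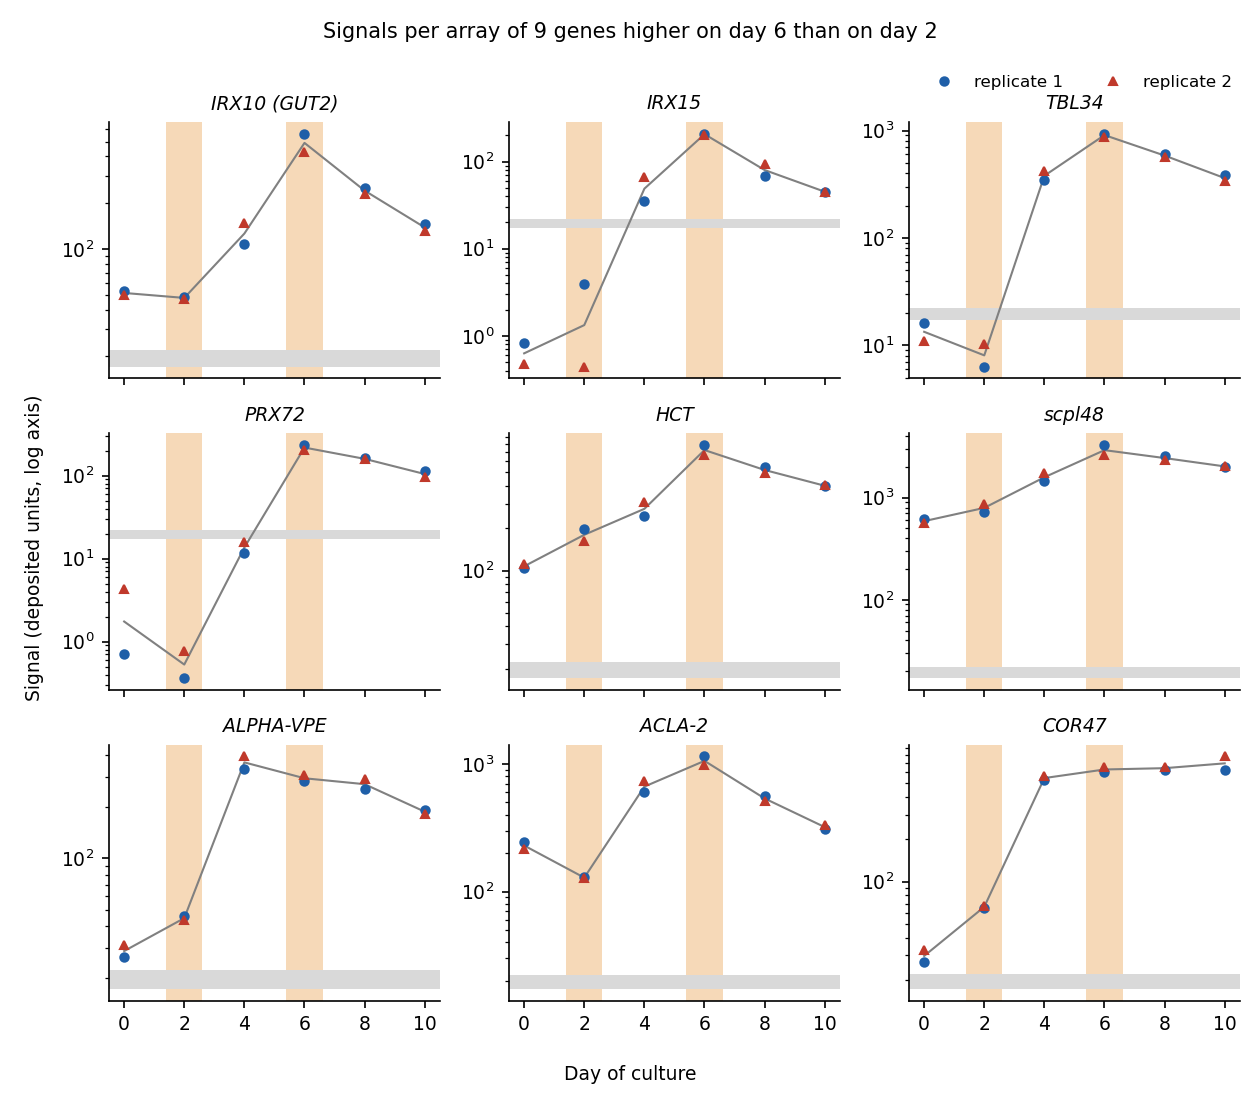
Signal per array (log axis, deposited units) over the 6 days for 9 genes that were higher on day 6 than on day 2. Circles and triangles are the 2 replicates, lines join the geometric means, shaded columns mark days 2 and 6, and the horizontal grey band spans the 40th percentiles of the arrays. On day 6 both arrays of each gene lie above both arrays of day 2. ALPHA-VPE has its highest mean on day 4, COR47 on day 10 and the other 7 on day 6.

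Hydrolases of cell clearance rose in part. Both measured vacuolar processing enzymes, the cysteine proteases that activate other vacuolar hydrolases, were higher, with a median of 1.91, and 4 are named in the annotation. ALPHA-VPE had 45.8 and 43.6 on day 2 and 283 and 305 on day 6 (2.71 ± 0.12, limma adjusted p = 1.33e-08), and GAMMA-VPE had 350.4 and 295 on day 2 and 694 and 698 on day 6 (1.11 ± 0.08). The serine carboxypeptidase-like family did not move one way: of 11 measured members, 3 rose (27.3%, about the share of all probe sets), 5 fell (45.5%) and 3 did not pass (29 are named, median 0.23). The largest rise was that of scpl48, with 725 and 868 on day 2 and 3282 and 2588 on day 6 (1.88 ± 0.13). scpl20 rose by 1.68 ± 0.19 and SCPL49 by 0.39 ± 0.09. Among the falls, scpl35 and scpl28 went to dim signals, at least 2.43-fold and 1.33-fold lower, and the call of scpl28 was lost when replicate 1 of day 2 or replicate 2 of day 6 was omitted (fitted values of -2.15 and -2.16, which rest on dim signals).

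Most ATG8 genes, whose small proteins are conjugated to the membranes of forming autophagosomes, rose. With 2 partner genes, 11 were measured, and 8 were higher, 1 was lower and 2 did not pass, with a median of 0.39. ATG8H changed most, from 16.0 and 28.7 with 1 dim array to 162 and 139.7, at least 6.32-fold higher. ATG8E had 192 and 200.01 on day 2 and 446 and 438 on day 6 (1.17 ± 0.11) and ATG8F rose by 0.70 ± 0.06. ATG101, a subunit of the kinase complex that starts autophagy, rose by 0.86 ± 0.15. ATG8G was the member that fell, by 0.40, and ATG3, the conjugating enzyme, did not pass (-0.075 ± 0.09). Of the 8 rises, 6 passed under every alternative tried; APG8A and ATG8B did not, for example without replicate 1 of day 6 (0.26 and 0.24).

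Genes of amino acid and purine breakdown rose more often than they fell. Of 20 genes, all measured, 14 rose, 2 fell and 4 did not pass, with a median of 0.97. Among enzymes of branched-chain amino acid and lysine breakdown, the biotin subunit MCCA of methylcrotonyl-CoA carboxylase went from 23.0 and 15.5 with 1 dim array to 119 and 133, at least 6.28-fold higher. Its partner subunit MCCB rose by 1.12 ± 0.11, isovaleryl-CoA dehydrogenase (IVD) by 0.97 ± 0.12 and the bifunctional lysine-degrading enzyme LKR/SDH by 2.54 ± 0.15, from 154 and 112 to 879 and 661. The electron carriers that take up electrons from these steps split: ETFQO rose by 0.98 ± 0.13, ETFALPHA did not pass (0.061 ± 0.08), and the call of ETFBETA (0.44 ± 0.17) did not pass under 7 of the alternatives, 3 of them the omission of replicate 1 of day 2 (0.26) or of either array of day 6 (0.53 and 0.35). D2HGDH rose by 1.59 ± 0.12. In purine breakdown, allantoinase (ALN) rose by 1.16 ± 0.10 and allantoate amidohydrolase (AAH) was at least 3.91-fold higher, whereas UGLYAH did not pass (0.25 ± 0.23). Pyruvate orthophosphate dikinase (PPDK, 2.41 ± 0.24), formate dehydrogenase (FDH, 2.16 ± 0.26) and the asparaginase ASPGB1 (1.62 ± 0.12) rose too. The members that fell were methionine gamma-lyase (MGL), by 0.74, and urease (URE), by 0.78. All 4 genes of ATP-citrate lyase, which makes cytosolic acetyl-CoA from citrate, were measured and rose, with a median of 1.37. ACLA-2 had 130.5 and 127 on day 2 and 1148 and 972 on day 6 (3.04 ± 0.11), ACLA-1 rose by 1.59 ± 0.09, ACLB-1 by 1.14 ± 0.09 and ACLA-3 by 0.89 ± 0.10.

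SWEET genes, which encode sugar transporters, rose in 4 of 6 measured cases, and 15 are named (median 1.48, or 1.00 with the dim gene at its bound). SWEET17 and SWEET16, both of the vacuolar membrane, rose by 1.63 ± 0.09 and 1.6 ± 0.29. SWEET2 was dim on day 2 and at least 1.48-fold higher. SWEET11, a plasma membrane sucrose transporter, had 28.7 and 24.9 on day 2 and 80.3 and 65.0 on day 6 (1.43 ± 0.17). SWEET1 (0.30 ± 0.25) and SAG29 (-0.55 ± 0.26) did not pass, and SAG29 passed as a fall with arrays centred on their medians. All 6 measured genes of the dehydrin and drought-related group rose (12 are named, median 1.58). Osmotin 34 (OSM34) had 152 and 77.0 on day 2 and 1276 and 1170.2 on day 6 (3.5 ± 0.23), with no overlap although the day 2 arrays differed. The dehydrin COR47 had 65.0 and 67.6 on day 2 and 607 and 652 on day 6 (3.25 ± 0.12), LTI30 rose by 1.77 ± 0.19, HIRD11 by 1.05 ± 0.10 and DI19, a zinc-finger protein gene, by 1.39 ± 0.09. DI21 rose by 0.36 ± 0.12 but did not pass with arrays centred on their medians (0.25), without replicate 2 of day 2 (0.29) or without replicate 1 of day 6 (0.29).

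Of the photosynthesis genes, 6 of 7 measured nuclear members rose and 1 did not pass (20 are named, median 1.66, or 1.29 with dim genes at their bounds). RCA, the activase of Rubisco, had 24.6 and 20.0 on day 2 and 239 and 254 on day 6 (3.48 ± 0.14). The light-harvesting proteins LHCB4.3 and LHCB4.1 were at least 6.71-fold and 5.34-fold higher than on day 2, when 1 and 2 of their arrays were dim. ATPC2 did not pass (-0.52 ± 0.22), and passed as a fall under several alternatives, among them quantile normalization and arrays centred on their medians. Genes of the plastid genome moved less: of 65 measured, 25 rose (38.5%), 0 fell and 40 did not pass, with a median of 0.44. The large subunit of Rubisco, rbcL, had 43.0 and 61.8 on day 2 and 98.3 and 118 on day 6 (1.07 ± 0.23), accD rose by 0.82 ± 0.11, ndhD by 0.79 ± 0.17 and petB by 0.50 ± 0.08. Only 8 of the 25 passed under every alternative that tested them. Without replicate 2 of day 2 there were 12 rises, without replicate 1 of day 6 there were 14, and with the replicate number as a block there were 40.

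Tubulin and microtubule genes shifted by small amounts. Of 17 measured (29 are named), 10 rose, 1 fell and 6 did not pass, with a median of 0.39. TRM15, of the TON1 recruiting motif family, rose most, from 28.2 and 23.9 to 128 and 121 (2.26 ± 0.13). TUB5 was at least 2.40-fold higher, TUB6 rose by 0.80 ± 0.13 and TUA6 by 0.39 ± 0.09. KINESIN-13A, a microtubule motor that acts in the pits of secondary walls, had 354 and 382 on day 2 and 537 and 544 on day 6 (0.56 ± 0.09). TUB9 was the member that fell, from 743 and 675 to 556 and 507 (-0.42 ± 0.08). Tubulin genes are close copies of each other, so signal may pass between their probe sets. Of 9 measured genes of the exocyst and its partners, which tether secretory vesicles at the plasma membrane, 3 rose (33.3%, near the 26.8% of all probe sets) and 6 did not pass: SEC6 by 0.87 ± 0.19, SEC5A by 0.61 ± 0.14 and the Sec1-like protein KEU by 0.64 ± 0.09. In the GH9 family of endo-glucanases 15 genes are named and 6 were measured, of which 3 rose, 1 fell and 2 did not pass (median 0.72). GH9B5 had 30.5 and 29.9 on day 2 and 107 and 69.9 on day 6 (1.51 ± 0.23), GH9B7 rose by 0.80 ± 0.09, GH9B17 was at least 1.79-fold higher, and GH9C2 fell by 1.08.

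**Figure D3:**
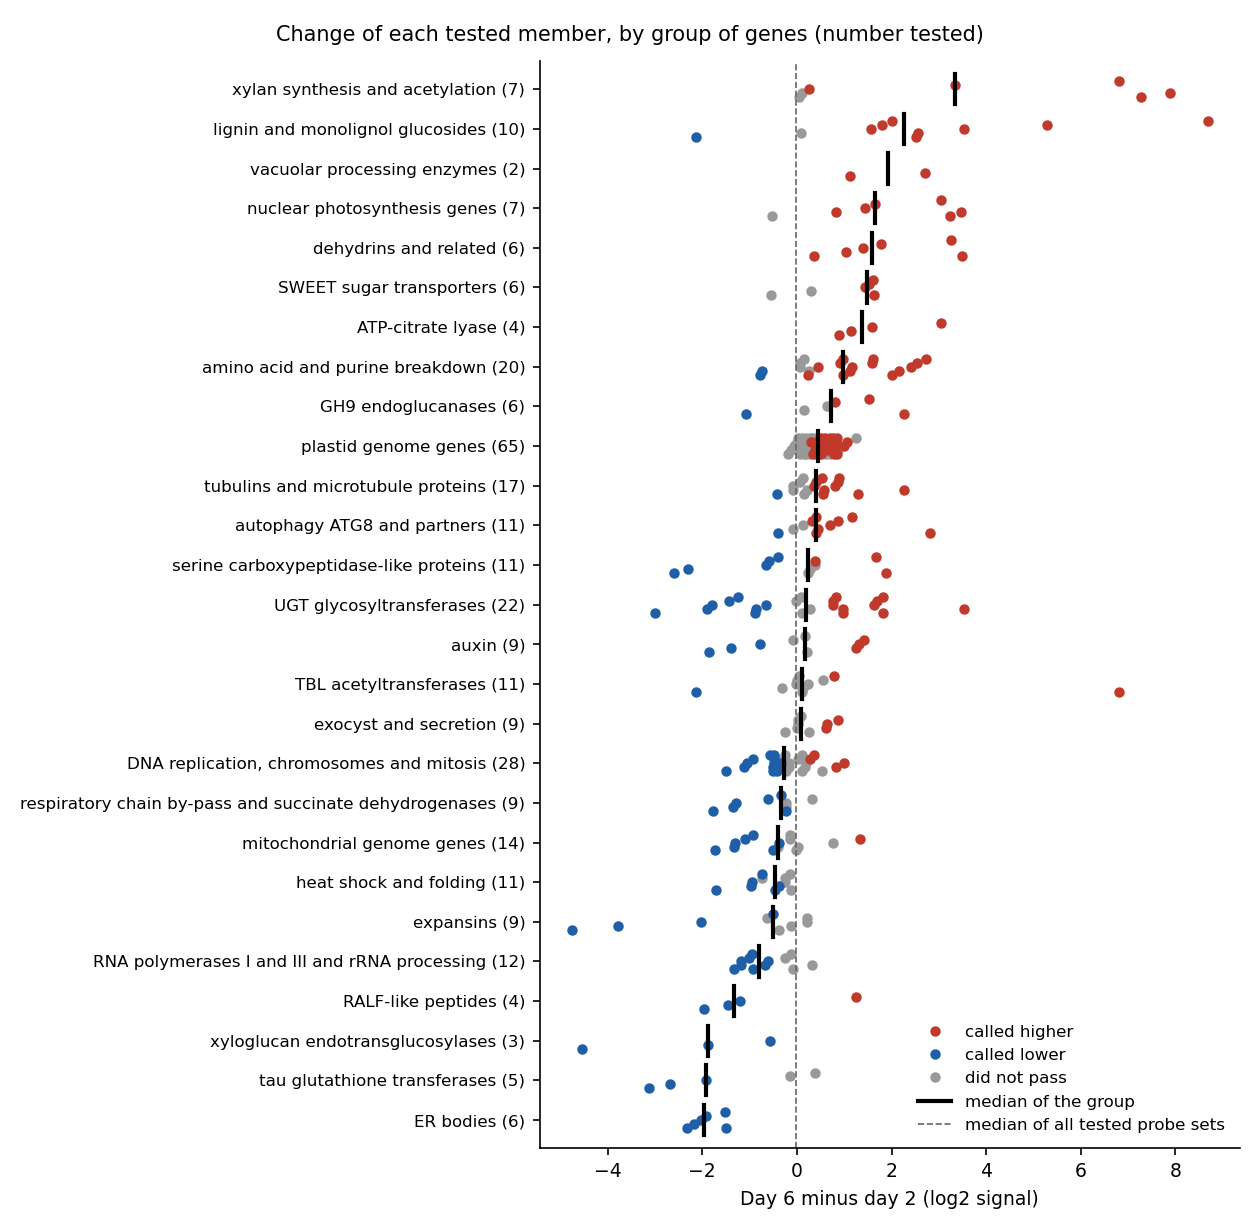
Change of each tested member (day 6 minus day 2, log2 signal) in 27 groups of genes, ordered by the group's median (vertical bar), with the number tested in brackets. The dashed line is the median of all tested probe sets, -0.024. The xylan group lies at the top, with a median of 3.35, and the ER body group at the bottom, with a median of -1.97; values of dim genes are included as fitted.

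Genes of primary wall loosening fell where they were called. Expansins are proteins that loosen primary walls in growing cells; 18 are named and 9 were measured, of which 4 fell (44.4%), 0 rose and 5 did not pass (median -0.50). EXPA9 went from 158 and 252 on day 2 to dim signals of 13.6 and 15.6 on day 6, at least 9.57-fold lower, and EXPA8 from 68.1 and 84.7 to 4.91 and 1.61, at least 3.65-fold lower. The other 2 falls were less firm: EXLA2, at least 1.99-fold lower, lost its call without any 1 of the 4 arrays (fitted values of -2.14 to -1.92, on dim signals), and EXPA15 (-0.50 ± 0.15) when either replicate 1 of day 2 (-0.37) or that of day 6 (-0.32) was omitted, leaving 2 falls in each of these 2 cases. EXPA4 did not pass (0.21 ± 0.25), although its signals on day 4 were 692 and 856 against 245 and 256 on day 2 and 262 and 321 on day 6. All 3 measured xyloglucan endotransglucosylase genes, which cut and rejoin xyloglucan chains, fell (10 are named, median -1.87, or -1.35 with dim genes at their bounds). XTH19 was at least 8.37-fold lower (156 and 195 on day 2 and 5.30 and 10.5 on day 6), XTH18 at least 2.55-fold lower, and EXGT-A3 fell by 0.58. EXO, a brassinosteroid-responsive gene of leaf growth, had 352 and 309.6 on day 2 and 38.2 and 56.9 on day 6 (-2.82 ± 0.20). RALF-like genes encode secreted peptides that restrain cell growth; of 4 measured, 3 fell and 1 rose (11 are named, median -1.33). RALFL34 fell by 1.97, RALFL33 by 1.45 and RALFL22 by 1.21, and RALFL24 rose by 1.25.

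The transcripts examined for making ribosomes fell or did not pass in the main fit. Of 12 genes of RNA polymerases I and III and of rRNA processing, all measured, 8 fell, 0 rose and 4 did not pass, with a median of -0.80. NRPA1, the largest subunit of RNA polymerase I, had 201 and 204 on day 2 and 108 and 101 on day 6 (-0.95 ± 0.09). The second subunit, NRPA2, had 432 and 420.2 on day 2 and 286 and 269.7 on day 6 (-0.62 ± 0.07). The days overlapped for neither gene. NRPC2, the second subunit of RNA polymerase III, fell by 1.02, and NRPC1 did not pass (-0.26 ± 0.13). Among processing factors, YAO had 473 and 562 on day 2 and 225 and 227 on day 6 (-1.19 ± 0.09, limma adjusted p = 1.09e-06). The exosome subunit RRP41 fell by 0.92, its homologue RRP41L by 1.34, and IMP4 by 0.67. All 8 falls passed under every alternative tried. Without a variance trend in the fit, 1 of the other 4 passed as a rise. The signal of the 25S rRNA control probe set, given above, was lower on both arrays of day 6 than on both of day 2. Its 2 arrays of day 2 differed widely (219 and 2183), and whether it bears on these falls was not tested.

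Genes of DNA replication, chromosomes and mitosis fell more often than they rose, by small amounts. Of 28 measured (30 are named), 12 fell (42.9%), 4 rose (14.3%) and 12 did not pass, with a median of -0.28. Of the 12 falls, 7 passed under every alternative that tested them. Histone H2B genes were among the 12: HTB2 had 125 and 121 on day 2 and 44.7 and 42.3 on day 6 (-1.5 ± 0.20), HTB1 fell by 1.05, HTB11 by 0.58 and HTB4 by 0.48. Matched by symbol alone, 7 histone genes were measured, of which 5 were lower and 1 was higher. The histone chaperone ASF1B fell by 0.94, and the spindle checkpoint genes BUB3.2 and BUB3.1 by 1.13 and 0.50. Of the 4 rises, 3xHMG-box1, at least 1.90-fold, and SKP2A (0.83 ± 0.11) passed under every alternative that tested them. The other 2, FBL17 (0.37 ± 0.15) and ATSMC2 (0.29 ± 0.11), did not, for example without replicate 2 of day 6 (0.31 and 0.21). The kinases AUR1 (-0.24 ± 0.17) and AUR2 (0.54 ± 0.21) of mitosis did not pass. The third Aurora kinase, AUR3, fell (-0.43 ± 0.13), but not without replicate 1 of day 2 (-0.32) or with replicate 2 of day 6 left out (-0.40).

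ER bodies are compartments of the endoplasmic reticulum in Brassicales that store beta-glucosidases used against herbivores. Every measured gene of the ER body group, which here takes in jacalin-related lectins, fell. Of 7 named genes 6 were measured, all 6 fell and all 6 passed under every alternative, with a median of -1.97. PYK10, the main beta-glucosidase of ER bodies, had 1389 and 1223 on day 2 and 310.2 and 216 on day 6 (-2.33 ± 0.21). NAI2, a structural protein of these bodies, had 419 and 416 on day 2 and 122 and 85.4 on day 6 (-2.03 ± 0.19), and NAI1, the transcription factor that drives both, had 126 and 97.9 on day 2 and 30.7 and 28.4 on day 6 (-1.91 ± 0.25). The lowest day 2 array stood above the highest day 6 array in each case. The jacalin-related lectins, a family that includes binding partners of PYK10, fell too: JAL34 by 2.18, JAL22 by 1.52 and JAL33 by 1.5.

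Tau-class glutathione transferases conjugate glutathione to reactive compounds; 11 are named and 5 were measured, of which 3 fell and 2 did not pass (median -1.92). GSTU22 had 1356 and 1223 on day 2 and 195 and 208 on day 6 (-2.68 ± 0.10), GSTU25 had 1967 and 1906 on day 2 and 550.1 and 474 on day 6 (-1.92 ± 0.15) and GSTU26 fell by 3.14. GSTU18 (0.39 ± 0.27) and GSTU27 (-0.15 ± 0.17) did not pass. The glutaredoxin GRX480, which links salicylic acid to TGA factors, was among the 10 largest falls of genes measured on both days, with 278 and 276 on day 2 and 40.6 and 29.7 on day 6 (-3.0 ± 0.25). UGT glycosyltransferases, which attach sugars to small molecules, went both ways: of 22 measured (48 are named), 10 rose (45.5%), 8 fell (36.4%) and 4 did not pass, with a median of 0.19. UGT71C2 (1.83 ± 0.17) and UGT88A1 (1.70 ± 0.13) rose, as did UGT73B1 (1.63 ± 0.36). UGT73D1 was at least 5.46-fold lower, UGT76B1, which conjugates isoleucic acid, fell by 1.89, and UGT73B4 by 1.44. The 8 rises and 6 falls that passed under every alternative that tested them include all those named. With the 60th percentile filter 13 of these genes were tested, of which 6 were higher and 4 lower.

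Of 9 measured genes of the alternative NADH dehydrogenases, cytochrome c and succinate dehydrogenase (11 are named), 6 fell, 0 rose and 3 did not pass (median -0.34). NDB2, an external NADH dehydrogenase of mitochondria, had 686 and 645 on day 2 and 198 and 189 on day 6 (-1.78 ± 0.13), NDB4 fell by 1.29, and the cytochrome c genes CYTC-2 and CYTC-1 by 1.36 and 0.60. The falls of SDH1-1 (-0.34 ± 0.13) and SDH2-1 (-0.23 ± 0.08) did not pass under quantile normalization (-0.28 and -0.15) or without replicate 2 of day 2 (-0.25 and -0.25). Of the mitochondrial genome, only genes with nad, cox, ccb, matR or orfX symbols were grouped, and others were not examined. Of 14 measured in this group (16 are named), 7 fell, 1 rose and 6 did not pass, with a median of -0.39. The cytochrome c biogenesis gene ccb452 had 844 and 838 on day 2 and 228 and 279 on day 6 (-1.74 ± 0.12), nad4L fell by 1.3, cox2 by 1.09 and nad1 by 0.50, and nad4 rose by 1.34. Copies of mitochondrial DNA lie in the nuclear genome, so these probe sets may read more than 1 locus.

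In the chosen group of heat shock and protein folding genes, no measured member was called higher on day 6. Of 11 measured (13 are named), 6 fell, 0 rose and 5 did not pass, with a median of -0.46. Fes1A, a partner of HSP70, had 297 and 320.1 on day 2 and 159.5 and 154 on day 6 (-0.98 ± 0.12). HSA32 fell by 0.95, the small heat shock protein-like BOB1 by 0.73 and the co-chaperone Hop1 by 0.38. ATHSP22.0 was at least 2.00-fold lower, and Hop3 (-0.46 ± 0.17) missed the threshold when replicate 2 of day 2 (-0.26) was left out, and with the omission of either array of day 6 (-0.49 and -0.42). ROF2 (-0.24 ± 0.13) and Hsp70-2 (-0.15 ± 0.16) did not pass.

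Auxin genes gave 3 rises, 3 falls and 3 that did not pass among 9 measured (16 are named, median 0.16), and 33.3% each way is near the shares of all probe sets. IAA29 had 19.9 and 18.8 on day 2 and 49.5 and 53.9 on day 6 (1.42 ± 0.14), and IAA30, like it a transcriptional repressor of the Aux/IAA family, rose by 1.26 ± 0.17. WES1, a GH3 enzyme that conjugates auxin to amino acids, rose by 1.32 ± 0.23. Another GH3 enzyme, GH3.17, had 692 and 612 on day 2 and 179 and 182 on day 6 (-1.85 ± 0.09), IAGLU, a glucosyltransferase of auxin, fell by 1.38, and IAA18 by 0.78. GH3.3 had 30.7 and 36.0 on day 2 and 33.4 and 44.7 on day 6 and did not pass (0.22 ± 0.37), but its day 4 signals were dim on both arrays (1.75 and 5.32). Nor did LBD16 (0.16 ± 0.17) or HAT2 (-0.073 ± 0.18) pass.

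**Figure D4:**
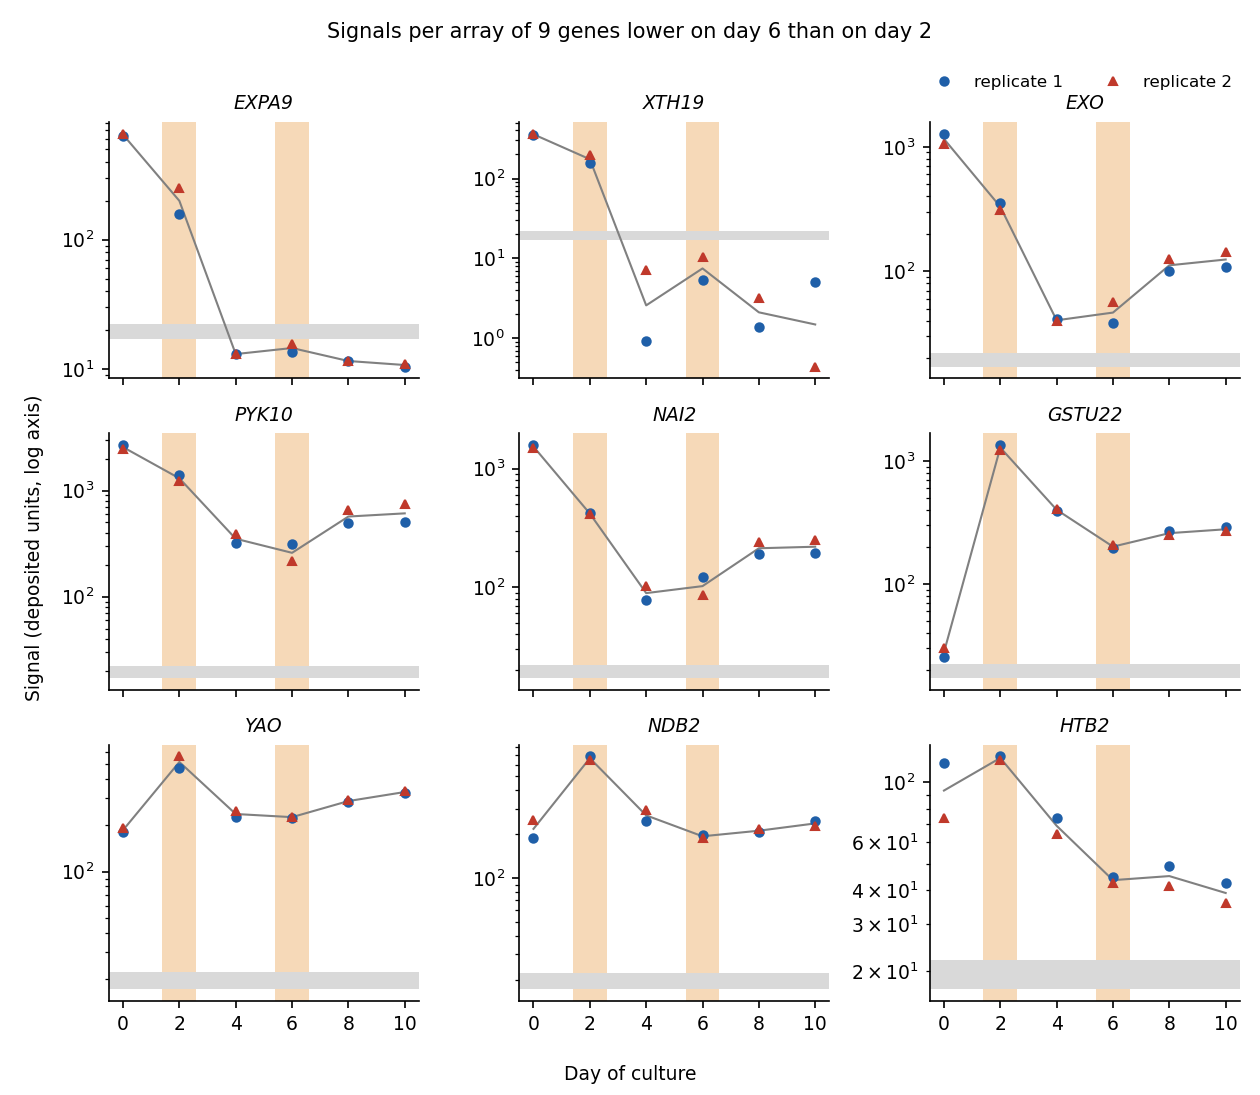
Signal per array (log axis, deposited units) over the 6 days for 9 genes that were lower on day 6 than on day 2, drawn as in the plot of rising genes. On day 6 both arrays of each gene lie below both arrays of day 2. GSTU22, YAO, NDB2 and HTB2 have their highest means on day 2, whereas EXPA9, XTH19, EXO, PYK10 and NAI2 have theirs on day 0.

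Most of the largest changes belonged to loci without a gene symbol in the annotation, for which no role is given. A symbol was given for 1046 of the 7666 genes, so most tested genes lack 1 as well. Only probe sets annotated to 1 gene are ranked here, so larger changes may lie among the others. Among called genes measured on all 4 arrays, the 10 largest rises ran from 3.63 to 5.82. AT2G03200 had 35.7 and 37.2 on day 2 and 2334 and 1812 on day 6 (5.82 ± 0.17, limma adjusted p = 6.78e-10). AT1G23460 had 31.2 and 22.6 on day 2 and 1570.3 and 1284 on day 6 (5.74 ± 0.16), on a probe set that also matches other transcripts. AT3G15450 (4.77 ± 0.33), AT2G04850 (4.36 ± 0.35), AT3G59480 (4.21 ± 0.27), AT1G28100 (4.01 ± 0.18), AT4G34950 (3.88 ± 0.09), AT3G15630 (3.72 ± 0.19), AT5G61340 (3.68 ± 0.14) and AT5G55970 complete this set. The largest of the 10 falls was that of AT3G24240, with 766 and 867 on day 2 and 64.5 and 67.6 on day 6 (-3.63 ± 0.14). It was followed by AT4G22212 (-3.26 ± 0.14), GSTU26, AT5G38170 (-3.10 ± 0.18), ZW9 (-3.07 ± 0.31), GRX480, AT4G11290 (-2.89 ± 0.19), AT2G18210 (-2.87 ± 0.30), AT5G47550 (-2.87 ± 0.17) and AT1G11670 (-2.86 ± 0.22). Among genes dim on 1 of the days, the largest bounds for rises were at least 102-fold for AT1G24030, 93.4-fold for AT1G70500, 87.1-fold for AT5G07080, 65.9-fold for AT4G08160, listed with the synonym ATXYN3, 62.3-fold for AT5G40020, 54.0-fold for AT4G27435, 50.7-fold for AT3G27200 and 50.5-fold for AT5G26330. AT1G24030 had 1.93 and 0.896 on day 2 and 2126 and 1675 on day 6, and AT5G07080 had 15.1 and 11.7 on day 2 and 1668 and 1559.7 on day 6. For falls to dim signals the largest bounds were at least 49.7-fold for AT5G01870 (964 and 1113 on day 2 and 14.1 and 20.1 on day 6), 12.7-fold for AT5G23830, 11.1-fold for AT1G04660, 10.3-fold for AT2G43870 and 9.60-fold for AT2G03980. EXPA9, XTH19 and the beta-glucosidase gene BGLU44 (at least 8.49-fold, 176 and 177 on day 2 and 15.4 and 12.6 on day 6) had the other 3.

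Day 4, labelled 22 C, showed how these changes were spread over the interval. Its mean lay between the means of days 2 and 6 for 1192 of the 1416 probe sets higher by a fitted 2-fold or more, beyond the day 6 mean for 187 and on the other side of day 2 for 37. For the 1214 lower by as much the counts were 951, 234 and 29. The median of day 4 was 69.5% of the way up and 76.4% of the way down on the log2 scale. These shares rest on the same day 2 and day 6 arrays that chose the probe sets and are a description only. Against the mean of days 2 and 6, 3007 probe sets (21.2%) stood apart on day 4, 1577 (11.1%) higher and 1430 (10.1%) lower. These counts rest on both day 4 arrays: without replicate 1 of day 4 they were 887 and 786, and without replicate 2 they were 791 and 789.

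Among genes with no dim array on the 3 days, SWEET11 had the largest departure upward on day 4, with 603 and 674 on day 4 against 28.7 and 24.9 on day 2 and 80.3 and 65.0 on day 6 (3.86 ± 0.15 above the mean of the 2 days, limma adjusted p = 2.94e-07). AT5G38160 had 551 and 460.00 on day 4 against 95.4 and 93.1 on day 2 and 45.7 and 41.5 on day 6, so its day 4 signals exceeded both days while day 6 was lower than day 2. AT2G04850 (2.55 ± 0.30), AT3G59480 (2.55 ± 0.24) and AT3G10080 (2.51 ± 0.26) were the next 3. Downward, isocitrate lyase (ICL), an enzyme of the glyoxylate cycle, had 99.6 and 72.7 on day 4 against 543 and 575 on day 2 and 223 and 167 on day 6 (-1.95 ± 0.13). The methionine sulfoxide reductase gene MSRB9 had 31.1 and 32.5 on day 4 against 194 and 217 on day 2 and 72.0 and 68.6 on day 6 (-1.92 ± 0.11), and AT3G15810 (-1.87 ± 0.12), AT1G74010 (-1.77 ± 0.10) and AT2G41380 (-1.72 ± 0.26) followed. Among groups, 9 of 17 microtubule genes and 8 of 28 genes of replication and mitosis stood above the mean of days 2 and 6 on day 4, with 0 and 1 below it. Of the 12 genes of RNA polymerases and rRNA processing 6 stood below and 0 above. Of the 3 xyloglucan endotransglucosylases it was 3 and 0, and of the 6 genes of the ER body group 4 and 0. For lignin 4 of 10 stood below and 0 above. Both vacuolar processing enzymes, 4 of 6 dehydrin-related genes, 3 of 6 SWEET genes and 3 of 7 xylan genes stood above on day 4, with 0 below in each. Of the UGT genes 10 of 22 stood below and 2 above, and of the expansins 4 of 9 and 1.

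The 4 days from day 2 to day 6 were set against the 4 days from day 4 to day 8, both labelled 22 C, an interval that uses none of the same arrays. The 2 intervals differ in labelled temperature and in their place in the course, which cannot be told apart. The median absolute log2 change over the 14154 probe sets was 0.44 in the earlier interval and 0.22 in the later one. These probe sets were chosen by their signals on days 2 and 6, which favours changes in the earlier interval, so the 2 medians are not a like comparison. Over these probe sets the 2 sets of changes correlated at r = 0.343, a description across probe sets, which are not independent and share the arrays of each day. Of the 3795 probe sets higher on day 6 than on day 2, 860 (22.7%) were also higher on day 8 than on day 4 and 370 (9.75%) were lower. Of the 4153 lower ones, 755 (18.2%) were also lower and 397 (9.56%) were higher. From day 4 to 8, 1730 of all 14154 probe sets were called higher and 1602 lower. The 860 shared rises and 755 shared falls are 49.7% and 47.1% of these. Tested directly, the change differed between the intervals for 5835 probe sets (41.2%), being higher in the earlier one for 2734 (19.3%) and lower for 3101 (21.9%). The same choice of probe sets bears on these counts and on those of the groups that follow.

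All 6 genes of the ER body group and 9 of 12 genes of RNA polymerases and rRNA processing had a lower change in the earlier interval. In each of these groups 0 had a higher one. PYK10 fell by 2.33 from day 2 to 6 and changed by 0.69 from day 4 to 8, a difference of -3.03 ± 0.29 (limma adjusted p = 1.38e-05). All 4 ATP-citrate lyase genes, 6 of 7 nuclear photosynthesis genes, 10 of 17 microtubule genes and 12 of 20 genes of amino acid and purine breakdown differed the other way, and 3 of the last group were lower. ACLA-2 changed by 3.04 and -0.31, a difference of 3.35 ± 0.16. Of the xylan genes 4 of 7 rose more from day 2 to 6: TBL34, IRX15, IRX15-L and IRX10 (for IRX10 3.35 and 0.93, a difference of 2.42 ± 0.23). In the lignin group 4 of 10 rose more in the earlier interval, 1, ALDH2C4, fell more, and 5 did not pass; BGLU46 changed by 2.56 from day 2 to 6 and by 2.15 from day 4 to 8 (adjusted p = 0.143 for the difference).

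**Figure D5:**
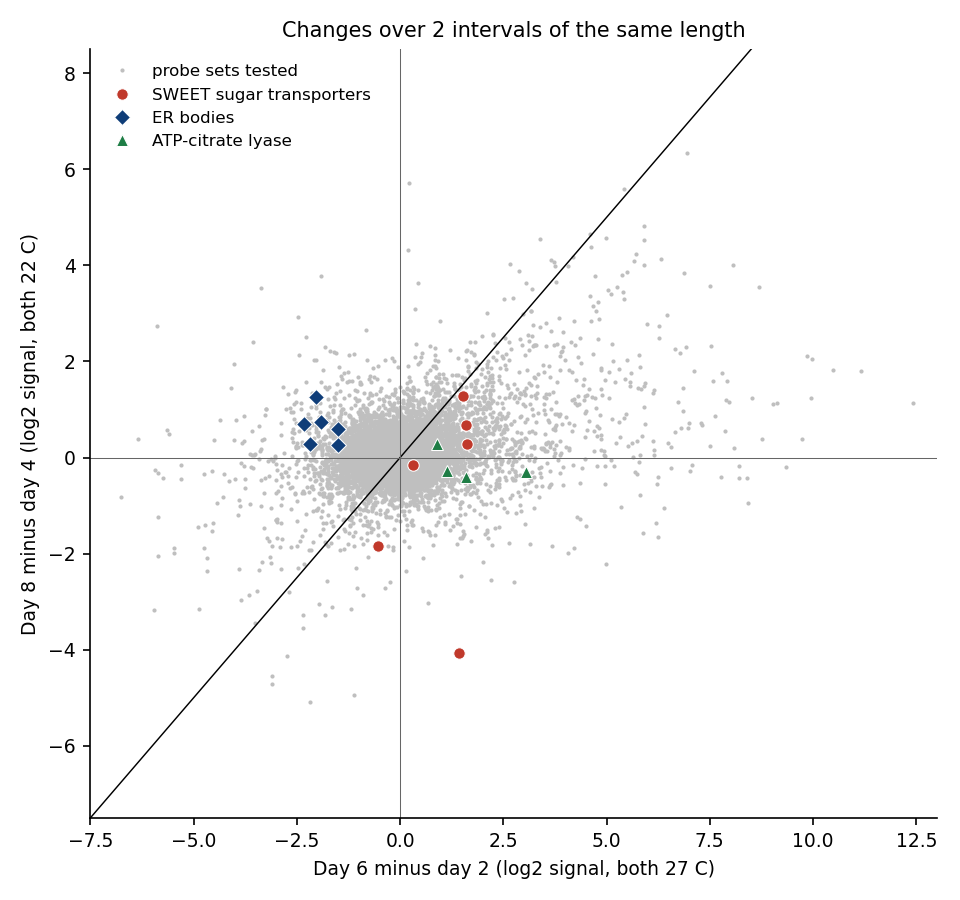
Log2 change from day 4 to day 8, both labelled 22 C (vertical axis), against that from day 2 to day 6, both labelled 27 C (horizontal axis), for the 14154 probe sets tested, with the line of equality. The 6 genes of the ER body group lie left of zero and above it. The 4 ATP-citrate lyase genes lie right of zero and close to it on the vertical axis, and SWEET11 lies at 1.43 and -4.06.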

How the data were processed

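RNA of Arabidopsis suspension cells was measured on 12 single-colour ATH1 arrays, 2 on each of 6 days. The deposited values are linear signal intensities of probe sets, which the authors obtained from MAS5 (named in the submitters' processing notes, with no version given). Their trimmed mean is the same on every array, so the deposited signals had been scaled to a common level. Log2 of the signal was taken with no pseudocount. Of 22810 probe sets, 64 array controls were left out, and those reaching each array's 40th percentile on both arrays of day 2 or of day 6 were tested.

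One mean per day was fitted to all 12 arrays with limma 3.58.1 in R 4.3.3, using a variance trend (6 residual degrees of freedom) and Benjamini-Hochberg adjustment over the 14154 probe sets, with a threshold of 0.05. Tables and figures were made with Python 3.11.15, pandas 2.3.3 and matplotlib 3.10.9. Of the 22746 other probe sets, 13513 are annotated to 1 gene, 503 to several and 8730 have no gene listed. Only those with 1 gene were named, and 13436 matched a RefSeq locus. Of several probe sets of a gene, the one with the highest mean was used.

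Named are the 10 largest rises and falls among called genes measured on both days without overlap, the 8 largest bounds each way among called genes dim on 1 day, the members of the gene groups with the largest changes or with a change against the group, and the 5 largest departures each way in the other 2 contrasts. Genes whose lists the text gives were grouped by symbol or locus. The members and lists were chosen with earlier results of these data known. Alternatives covered normalization, the filter on dim probe sets, a pseudocount, the variance trend, a block, the arrays fitted, shared probe sets and the omission of each array. Promoter motifs were not analysed here.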

Additional observations from a re-analysis of the deposited data

Results flagged for a closer look

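The change from day 2 to day 6 differed from the change from day 4 to day 8 by a limma test of the difference itself, being higher for 2734 probe sets and lower for 3101. The probe sets were chosen by their signals on days 2 and 6, which favours changes in the earlier interval. The 2 intervals share no array, and they differ in labelled temperature and in place in the course, which cannot be told apart. Among genes with no dim array on days 2, 4, 6 and 8, the largest differences upward on the log2 scale were 6.10 for AT3G59480, 5.78 for AT2G03200, 5.64 for AT2G04850, 5.49 for SWEET11 and 5.4 for AT1G23460. Downward they were -4.29 for EXO, -3.71 for MSRB9, -3.69 for AT3G24240, -3.50 for AT3G15810 and -3.48 for AT3G20370.

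The control probe set for 25S ribosomal RNA, which is not among the probe sets tested, stood above both day 0 arrays on 3 arrays of treated cells. It gave 219 on replicate 1 and 2183 on replicate 2 of day 2, and 1349 on replicate 2 of day 4, against 35.3 and 131 on day 0. Its part in the results was not tested.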

How the results depend on the processing

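For day 6 against day 2, the count of higher probe sets ran from 2918 to 3939 and that of lower ones from 3498 to 4957 over 11 alternatives, and from 3107 to 3438 and 3468 to 3582 without 1 array. For day 4 against the mean of days 2 and 6 the counts without 1 array ran from 791 to 1442 higher and from 786 to 1231 lower. The lowest came without a day 4 array: 887 higher and 786 lower without replicate 1, 791 and 789 without replicate 2, where the lone array is assumed to vary like those of other days. For the difference of the intervals the counts ran from 2362 to 2853 and 2605 to 3211 over the alternatives, and from 2259 to 2482 and 2640 to 2740 without 1 array. In all, 234 genes of the groups and rankings were called between days 2 and 6, not all of them named above. An alternative that left a gene out was not counted for that gene. In those that tested them, 191 passed throughout and 43 missed the threshold under at least 1. The cause was not tested. No direction reversed in 3831 values compared. Many of these could not reverse, because a change of filter, variance trend, block or set of days fitted leaves the fitted change as it was. With the replicate number as a block, the counts were 3888 higher and 4237 lower for days 2 and 6, 1693 and 1525 for day 4, and 2853 and 3202 for the intervals. No label says that a number marks a shared culture. Deviations of same-numbered arrays correlated at r = 0.116 for days 2 and 6 and at -0.046 to 0.139 over 15 pairs of days. They exceeded the limit of 0.1 in 5 pairs, days 2 and 6 among them. The 25S rRNA signal was higher on replicate 2 on all 6 days. Whether the numbers pair the arrays is thus not settled, and the main fit takes no pairing. The alternatives for promoter motifs were not run. Signals under the 40th percentile limit folds to bounds.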
